A study of Mus musculus with 6 samples.

Results

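The genes described here encode the factors that start, extend and end protein synthesis in the cytosol, together with kinases that signal to them. They were taken from the arrays by name: gene symbols beginning with Eif and a digit of 1 to 6 or with Eef1 or Eef2, plus Pabpc1, Etf1, Gspt1, Mknk1, Mknk2, Mtor, Rptor, Rps6kb1 and Rps6kb2, without the Eif2ak kinases, Eif2s3x and Eif2s3y. The rule itself uses no measured value, but it was written with earlier results of these data known. It gave 53 of the 12393 genes tested, and where several probe sets stood for a gene, the brightest by mean over the 6 arrays was read. Rptor and Rps6kb1 had no probe set assigned to them alone and were not analysed here.

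The arrays held RNA from primary hepatocytes of Alb/AEG-1 mice, in which hepatocytes carry extra AEG-1 (astrocyte elevated gene 1, symbol Mtdh) from a transgene, and of wild-type mice, with 3 arrays per genotype. The line carries the name of the albumin gene, whose promoter is active in hepatocytes. Both genotypes were of mixed strain B6/CBA, both were untreated, and both were harvested 24 h after plating on collagen. The labels call the arrays biological replicates but give neither the age of the mice nor whether each replicate was a separate animal, so the p-values reflect the variation among these arrays. The unit throughout is the log2 expression value of a probe set after RMA, and each difference is transgenic minus wild type. RMA equalises the distribution of values between arrays, so a difference is relative to the other mRNAs measured, and a change shared by most mRNAs would not appear.

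Mtdh at its brightest probe set was higher in transgenic hepatocytes by 1.92 (SE 0.10, limma adjusted p = 2.04e-05), while its other 5 probe sets did not pass the threshold. Array medians lay between 5.61 and 5.64. The hepatocyte markers Alb, Ttr, Apoa1, Apob, Cps1, Tat and Hnf4a were all measured at 11.34 or above, and 0 of the 7 changed by limma, with 0 also at an unadjusted p under 0.05. Markers of other liver cells were higher in part. Called were 2 of 7 macrophage genes, 1 of 5 endothelial genes, 0 of 5 stellate cell genes and 1 of 4 cholangiocyte genes. Marco, Ptprc, Kdr and Epcam were higher by 0.69, 0.61, 0.41 and 1.52 (limma adjusted p = 0.0209, 0.00114, 0.0196 and 5.24e-05). Of the listed markers 2, 1, 3 and 3, in the same order of cell types, averaged under the array median. Over all genes 15.9% were called in either direction. In the same lists Csf1r, Cdh5, Lrat, Krt7 and Sox9 gave -0.10, -0.11, -0.055, -0.027 and -0.016 and did not pass. The remaining markers of these cell types lay above 0. The summed macrophage signal was 9.57 to 9.65 on the log2 scale in transgenic and 9.41 to 9.52 in wild-type arrays, the endothelial signal 8.79 to 8.85 against 8.56 to 8.68, the stellate cell signal 8.04 to 8.07 against 7.86 to 7.91, and the cholangiocyte signal 8.32 to 8.40 against 8.10 to 8.17. The part of those cells in the values that follow was not tested. In bulk RNA, more cells of a type and more RNA per cell cannot be told apart. The Gapdh control probes at the 3' end exceeded those at the 5' end by 0.096 to 0.11 in transgenic and 0.014 to 0.13 in wild-type arrays, so the genotypes overlapped.

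Protein synthesis begins when eIF2 carries the initiator tRNA to the small ribosomal subunit, eIF3 and eIF1A hold the complex together, and the cap-binding complex eIF4F brings in the mRNA. eIF5 then triggers GTP hydrolysis on eIF2 at the start codon, eIF5B joins the large subunit, and eEF1 and eEF2 drive elongation. The kinase mTOR frees the cap-binding protein eIF4E by phosphorylating its repressors, the 4E-binding proteins. Hepatocytes export large amounts of protein, and AEG-1 has been described as an RNA-binding protein of the endoplasmic reticulum that associates with translated mRNAs. Arrays measure mRNA, and neither phosphorylation nor the amount of any factor as protein.

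Most translation factor mRNAs differed little between the genotypes. By limma with Benjamini-Hochberg adjustment over all genes, 4 of the 53 passed the threshold of 0.05, which is 7.55%, beside 15.9% of all genes tested. The mRNAs of Eif1a, Eif4ebp1 and Eef1a2 were higher in transgenic hepatocytes (3 genes, where 6.83% of all genes were called higher), and that of Eif5 was lower (1 gene, where 9.05% of all genes were called lower). At an unadjusted p under 0.05 there were 12 members (22.6%), beside 28.9% of all genes, and 38.8% of those brighter than the array median. The 2 genotypes had no overlapping readings in 22 of the 53 (41.5%), beside 34.5% of all genes. Of these 18 were higher and 4 lower, where 16.9% of all genes were separated upwards and 17.6% downwards. Among the 49 members brighter than the array median the share was 44.9%, beside 47.6% of all genes that bright. At its brightest probe set none of the 53 differed by 1.5-fold (0 genes), though a dimmer probe set of Eif5 gave -0.64. The differences at the brightest probe sets ran from -0.46 to 0.50. Their median was 0.056, against 0.010 over all genes, and the median size regardless of direction was 0.090 among the translation factors brighter than the array median and 0.12 among all genes that bright. Of the 49 translation factors above the array median 4 were called, or 8.16%, where 23.6% of all genes that bright were.

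The number called depended on the variance model. With a variance prior that follows expression level, 12 of 53 passed (22.6%) and so did 21.1% of all genes. Of the members brighter than the array median 24.5% then passed, beside 33.1% of all genes that bright. After leaving out genes dimmer than the median gene, 10 of 48 passed (20.8%), beside 37.2% of the genes then tested. With the variance trend the additional calls were Eif6, Eif1b, Eif4g3, Eif3c, Eif4h, Eef1d and Eif3i as higher and Eif4a2 as lower. Without dim genes they were Eef1akmt1, Eif6, Eif1b, Eif4g3 and Eif4h as higher and Eif4a2 as lower. Without transgenic replicate 3 the count was 2 (3.77%, beside 10.7% of all genes).

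**Figure D1:**
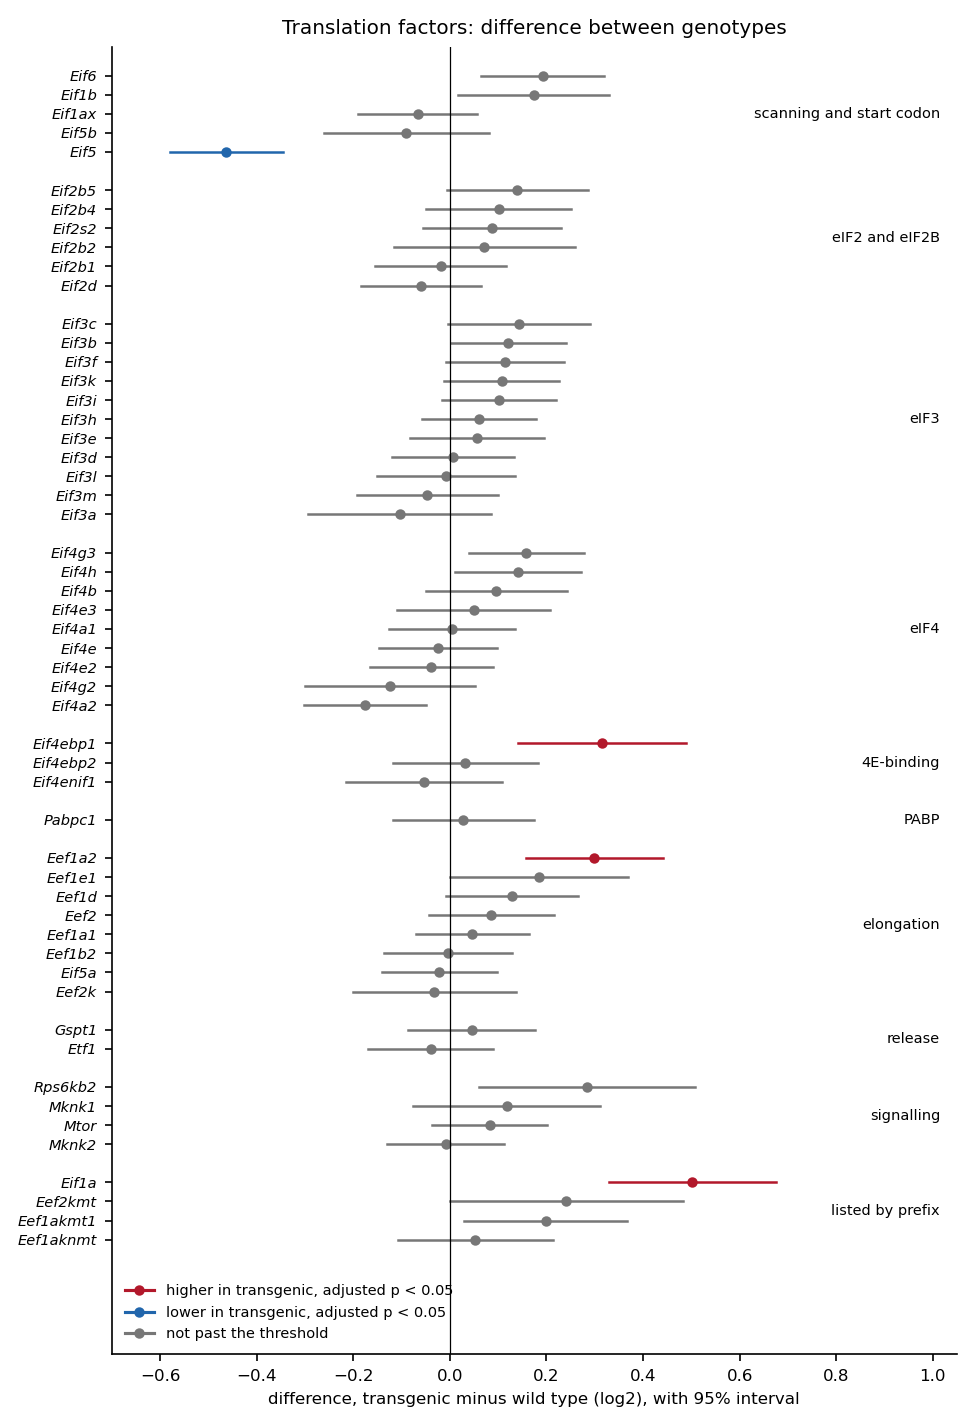
Difference between transgenic and wild-type hepatocytes for each of the 53 translation factor genes (x axis, log2), grouped by role, with points for the estimate and lines for its 95% interval. Eif5 lies at -0.46 and Eif1a at 0.50, and the intervals of most other genes include 0.

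The arrays were precise enough to bound many of these differences. For 47 of the 53 genes the limma 95% interval lay within 1.3-fold in either direction (88.7%, against 73.2% of all genes tested), and for 52 it lay within 1.5-fold. The intervals are for single genes, each at its brightest probe set, and are not widened for the number of genes. The exception at 1.5-fold was Eif1a, whose interval ran from 0.33 to 0.67 on the log2 scale.

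**Figure D2:**
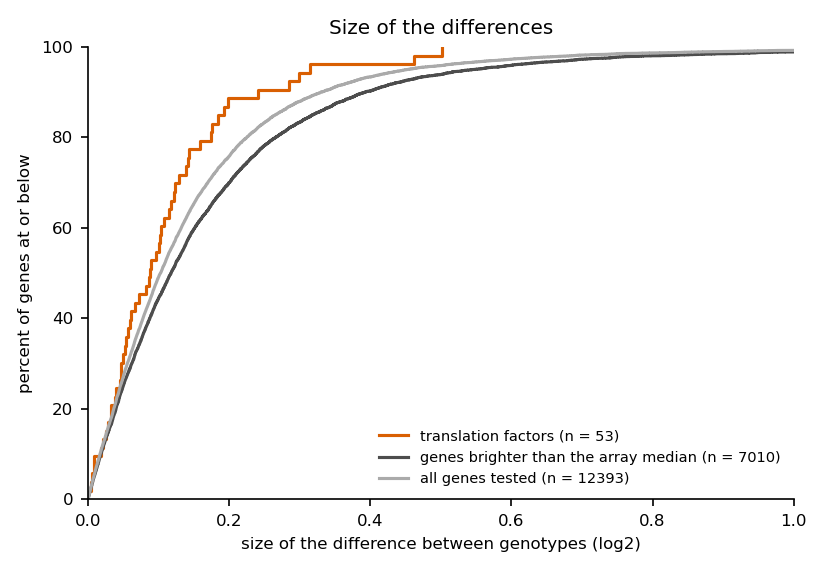
Cumulative share of genes (y axis, percent) by the size of the difference between genotypes regardless of direction (x axis, log2, shown up to 1), for the 53 translation factors, for the 7010 genes brighter than the array median and for all 12393 genes. The curve of the translation factors reaches 100% near 0.50.

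Eif5, the GTPase-activating protein that sets off GTP hydrolysis on eIF2 at the start codon, was the member that fell. It read 10.52, 10.57 and 10.54 in transgenic hepatocytes, against 11.02, 11.01 and 10.99 in wild-type hepatocytes. The groups were separated by a gap many times the spread within either of them. The difference was -0.46 (SE 0.05, limma adjusted p = 0.000799), a 1.38-fold decrease with a 95% interval from -0.58 to -0.34. All 4 probe sets of the gene passed as lower when every probe set on the array was tested, with differences of -0.46, -0.64, -0.41 and -0.37, and 12% of all probe sets were called in that test. The call held under all 17 alternative settings tried. The RefSeq promoter table (build GRCm38.p6) places the start of Eif5 on the plus strand of chromosome 12. Its promoter is shown because it is the member that fell, as the 100 bases before the annotated start, at chr12:111538001-111538100:
Eif5: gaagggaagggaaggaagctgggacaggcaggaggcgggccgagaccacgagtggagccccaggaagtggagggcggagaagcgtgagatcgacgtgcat

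Apart from Eif1a, described below, the other factors of scanning and subunit joining gave smaller differences. Eif6, which keeps the large ribosomal subunit from joining too early, read 9.96, 9.94 and 9.90 in transgenic against 9.76, 9.77 and 9.69 in wild-type hepatocytes. These groups did not overlap, but the difference of 0.19 missed the threshold (SE 0.05, limma adjusted p = 0.0505). It passed under 6 of the alternatives, among them the variance trend (limma adjusted p = 0.00466) and leaving out dim genes. The others were the mean of probe sets, repeated quantile normalization, median centring and array weights. Eif6 has 1 probe set, so averaging probe sets changed the values of other genes only. Eif1b, a close relative of the start codon selection factor eIF1, differed by 0.17, with an adjusted p of 0.132 by limma. Eif5b, the GTPase of subunit joining, gave -0.090 and overlapped between the genotypes.

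Eif1a, an autosomal gene for the scanning factor eIF1A on chromosome 18, had the largest increase among the members. It read 9.98, 9.95 and 10.08 in transgenic hepatocytes, against 9.44, 9.43 and 9.64 in wild-type hepatocytes. The highest wild-type array lay well under the lowest transgenic array. The difference was 0.50 (SE 0.07, limma adjusted p = 0.00349), a 1.42-fold increase. A second probe set gave 0.39 (limma adjusted p = 0.0114 over all probe sets). The suffixes of both probe sets mark them as possibly matching more than 1 transcript, so without such probe sets the gene could not be measured. Eif1ax, the X-linked gene for nearly the same protein, read 8.71, 8.74 and 8.80 in transgenic against 8.83, 8.81 and 8.81 in wild-type hepatocytes. Its difference was -0.067 (SE 0.05, limma adjusted p = 0.462), and its second probe set gave -0.013. Whether the Eif1a probe sets also bind Eif1ax mRNA was not tested.

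**Figure D3:**
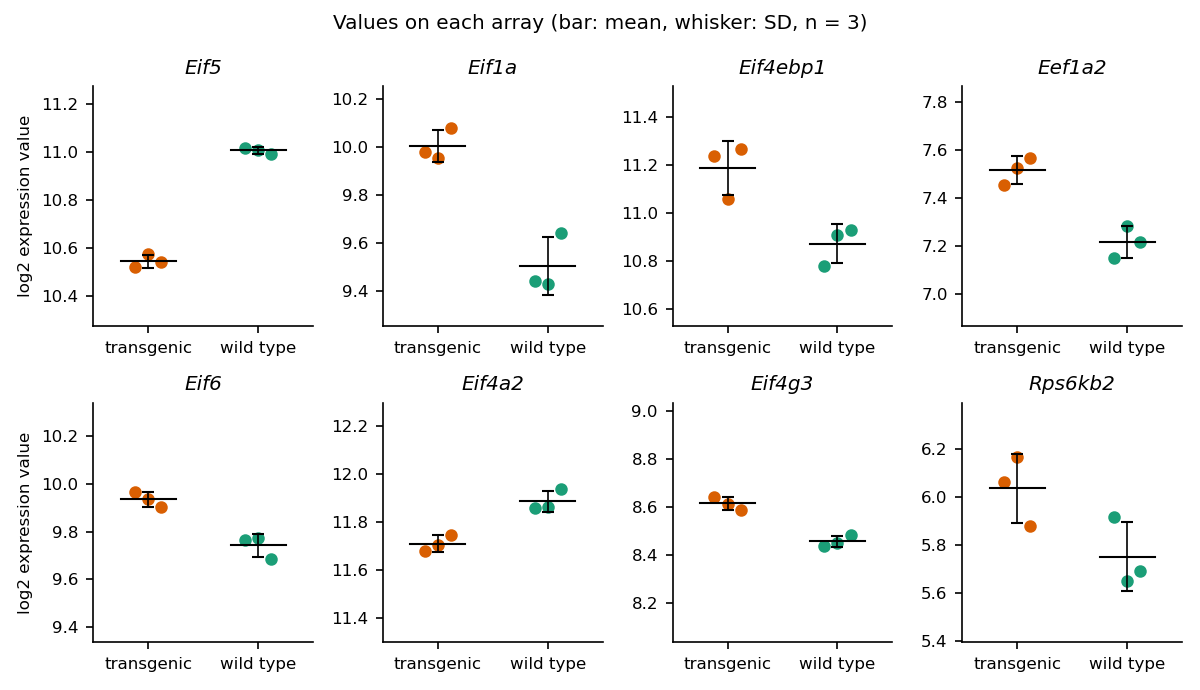
log2 expression values on each of the 3 transgenic and 3 wild-type arrays for the 4 genes that passed the threshold (top) and for 4 that did not (bottom); each panel spans 1 log2 unit, with its own offset, so panels compare differences and not levels. The genotypes are separated in every panel apart from Rps6kb2.

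The measured subunits of eIF2, which delivers the initiator tRNA, and of eIF2B, which recharges eIF2 with GTP, showed no call. Of the eIF2 subunits only Eif2s2 was among the members. Eif2s1 was not, and Eif2s3x and Eif2s3y were left out by the rule. Of the 6 genes measured here, which include Eif2d, 0 passed by limma and 0 had an unadjusted p under 0.05, beside 15.9% and 28.9% of all genes. Eif2s2, the beta subunit of eIF2, read 11.59, 11.68 and 11.69 in transgenic against 11.63, 11.49 and 11.58 in wild-type hepatocytes, a difference of 0.087. Eif2b5, the catalytic subunit of eIF2B, had the smallest p of the group and gave 0.14 (SE 0.06, limma adjusted p = 0.191), with groups that did not overlap. Eif2b4, Eif2b2 and Eif2b1, further subunits of the exchange factor, gave 0.10, 0.072 and -0.018. Eif2d, which can deliver initiator tRNA without eIF2, gave -0.060. The intervals of all 6 lay within 1.3-fold, the widest reaching 1.22-fold.

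The 11 measured subunits of eIF3, the large scaffold that binds the small ribosomal subunit, ran from -0.10 to 0.14. Of these 0 passed by limma (beside 15.9% of all genes) and 1 had an unadjusted p under 0.05 (9.09%, beside 28.9%). In 6 of the 11 every transgenic array read above every wild-type array, and in 0 the reverse held, beside the 16.9% and 17.6% of all genes given above. Those 6 were Eif3c, Eif3b, Eif3f, Eif3k, Eif3i and Eif3h. Eif3i read 11.83, 11.86 and 11.88 in transgenic against 11.78, 11.74 and 11.75 in wild-type hepatocytes, a difference of 0.10. Eif3b, a core scaffold subunit, read 9.31, 9.29 and 9.25 in transgenic against 9.17, 9.14 and 9.17 in wild-type hepatocytes, a difference of 0.12 (SE 0.05, limma adjusted p = 0.165). Among these 6 no difference exceeded 0.14, and the intervals of all 11 subunits lay within 1.3-fold. Eif3a, the largest subunit, gave -0.10 with 1 high wild-type array at 9.41 beside 9.13 and 9.16. The 4 probe sets of Eif3a ran from -0.10 to 0.16 and did not pass. Eif3e, Eif3d, Eif3l and Eif3m lay between -0.046 and 0.056. Eif3c and Eif3i passed with the variance trend (limma adjusted p = 0.0341 and 0.0390).

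The eIF4 genes encode the cap-binding proteins, the scaffolds and the RNA helicases that open the mRNA leader. Of the 9 measured here 0 passed by limma, beside 15.9% of all genes. At an unadjusted p under 0.05 there were 3 (33.3%, beside 28.9% of all genes). Eif4g1, a further scaffold gene, was not among the 9. Eif4a2, a helicase paralogue, came closest to the threshold. It read 11.68, 11.71 and 11.75 in transgenic against 11.86, 11.86 and 11.94 in wild-type hepatocytes, and the groups did not overlap. Its difference was -0.18 (SE 0.05, limma adjusted p = 0.0674), and it passed with the variance trend, without dim genes and with array weights. Its paralogue Eif4a1, the main helicase of eIF4F, read 12.17, 12.27 and 12.22 in transgenic against 12.26, 12.20 and 12.19 in wild-type hepatocytes, a difference of 0.0040 with a 95% interval from -0.13 to 0.13. The difference between the paralogues was not tested. Eif4g3, a scaffold of the complex, gave 0.16 (SE 0.05, limma adjusted p = 0.0777), and the helicase cofactor Eif4h gave 0.14 (SE 0.06, limma adjusted p = 0.140). Eif4b, another helicase cofactor, gave 0.097, and Eif4g2, a scaffold that lacks the eIF4E-binding site, gave -0.12. The cap-binding relatives Eif4e2 and Eif4e3 gave -0.038 and 0.050, Eif4e3 at a level under the array median.

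Eif4e, the cap-binding protein itself, gave unequal values by probe set. The brightest read 9.89, 9.91 and 9.97 in transgenic against 9.96, 9.92 and 9.96 in wild-type hepatocytes, a difference of -0.025 (SE 0.05, limma adjusted p = 0.809). The dimmest of its 3 probe sets read 7.26, 7.23 and 7.16 in transgenic against 6.79, 6.90 and 6.90 in wild-type hepatocytes and passed as higher, by 0.36 (limma adjusted p = 0.00864 over all probe sets). The third gave 0.12 and did not pass. Over all members, 12 of 123 probe sets passed (9.76%, beside 12% of all probe sets), 6 in each direction and from 7 genes. Those outside the 4 called genes were the Eif4e probe set, 1 of Eif3m at low signal (-0.32) and 1 of Eef1akmt1 (-0.27), while the brightest probe set of Eef1akmt1 gave 0.20. Of the called genes, 3 have several probe sets, and in all 3 a further probe set passed in the same direction and none passed in the opposite one.

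**Figure D4:**
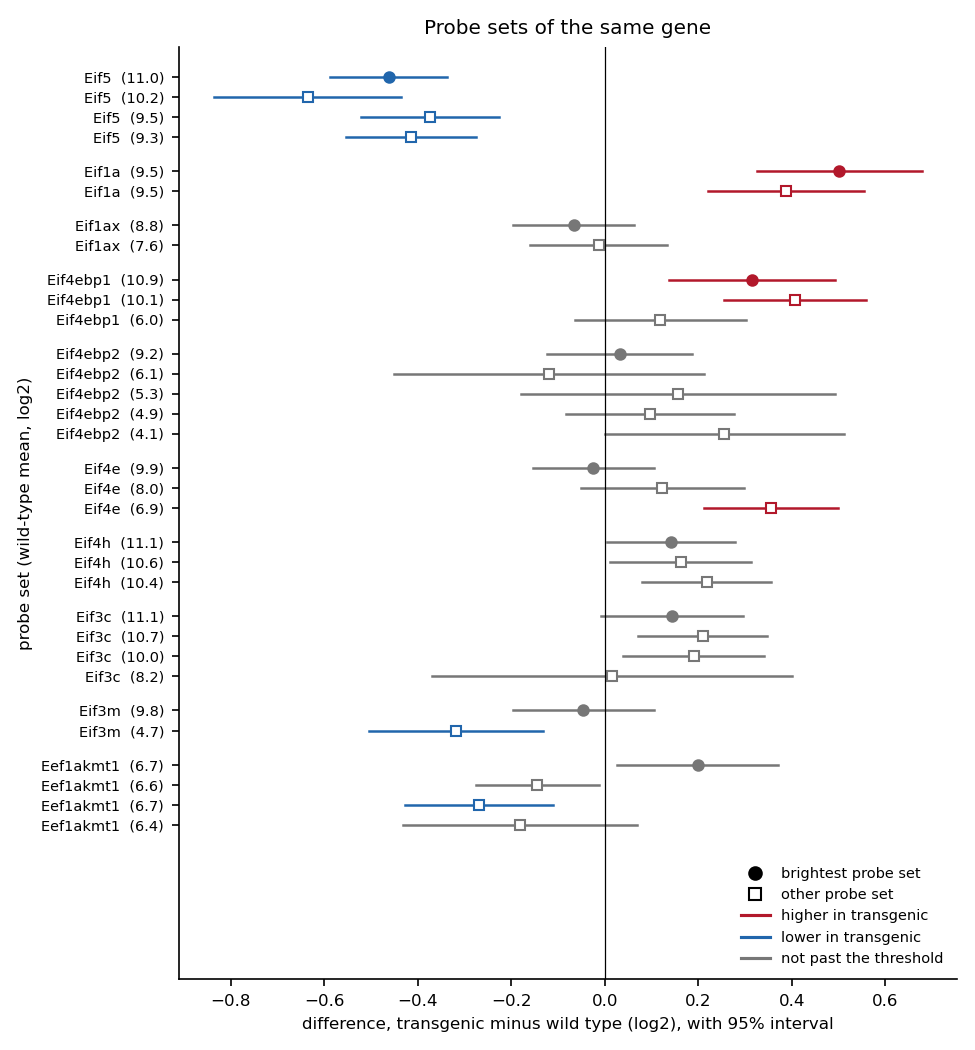
Differences of single probe sets (x axis, log2, with 95% intervals) for 10 translation factor genes, with the wild-type mean of each probe set in brackets. The 4 probe sets of Eif5 all lie below 0, whereas those of Eif4e and Eef1akmt1 fall on both sides of it.

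The promoters of the translation factor genes were searched for the E-box CACGTG, the palindromic sequence bound by MYC and related factors, in RefSeq windows of 250 bases before to 50 after each annotated start (GRCm38.p6). Windows were found for 40 of the 53 members, 55 in all since some genes have several annotated starts, and a gene was counted where any of its windows held the motif. The E-box stood in those of 12 members (30.0%), against 10.8% of the 9882 tested genes with a window and 8.09% of all genes in the table. These were Eef1aknmt, Eef2, Eef2k, Eif1b, Eif3a, Eif3f, Eif3k, Eif4a1, Eif4e, Eif4h, Eif5a and Mknk1. Their differences ran from -0.10 to 0.17 and 0 of the 12 were called by limma (15.9% of all genes), against 2, Eif5 and Eef1a2, of the 28 members with a window and no E-box in it. A match is a description of the letters and does not show a bound site. The 5 stretches that follow show members with the E-box for the cap-binding protein, its helicase and cofactor and the elongation factors, as 60 bases on the gene's strand with the E-box in capitals, at chr3:138527177-138527236 (plus strand), chr11:69672580-69672639 (minus), chr5:134639473-134639532 (minus), chr10:81176561-81176620 (plus) and chr11:69921428-69921487 (minus), in that order:
Eif4e: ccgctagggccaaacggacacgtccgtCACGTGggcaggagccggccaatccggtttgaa
Eif4a1: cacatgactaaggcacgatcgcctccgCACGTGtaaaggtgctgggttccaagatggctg
Eif4h: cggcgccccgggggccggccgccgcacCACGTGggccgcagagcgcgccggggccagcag
Eef2: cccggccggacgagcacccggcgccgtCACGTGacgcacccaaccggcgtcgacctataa
Eif5a: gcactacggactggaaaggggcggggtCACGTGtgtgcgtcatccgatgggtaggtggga

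The E-box printed for Eif4e began 64 bases before the annotated start and that of Eef2 began 43 bases before it. A second motif, TGATGNAAN on either strand, which resembles the element read by the stress factor ATF4, was found in 1 of the 40 members, Eef2k (2.50%, against 3.11% of tested genes). A terminal oligopyrimidine tract at the annotated start, by which mTOR controls translation of many of these mRNAs, was found in 1 member, Eif3f (2.50%, against 3.04% of tested genes). Such a tract was counted only where a C stood at the annotated start itself with at least 4 pyrimidines after it. A tract that begins elsewhere than at the annotated base was missed, so the count cannot show which members lack one.

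The eIF4E-binding proteins are translational repressors. Eif4ebp1, which holds eIF4E back from the scaffold when it is not phosphorylated, rose. It read 11.24, 11.06 and 11.27 in transgenic hepatocytes, against 10.78, 10.91 and 10.93 in wild-type hepatocytes. The groups did not overlap, though transgenic replicate 2 lay close to the wild-type arrays. The difference was 0.31 (SE 0.08, limma adjusted p = 0.0267), a 1.24-fold increase with a 95% interval from 0.14 to 0.49. The call was lost on leaving out transgenic replicate 1 (difference 0.29, adjusted p = 0.0885), transgenic replicate 3 (0.28, 0.0879), wild-type replicate 1 (0.27, 0.0694), wild-type replicate 2 (0.33, 0.0621) or wild-type replicate 3 (0.34, 0.0524), each time with fewer arrays. The second probe set, whose suffix marks it as specific to the gene, gave 0.41 (limma adjusted p = 0.00594 over all probe sets), with 10.62, 10.54 and 10.48 in transgenic against 10.20, 10.07 and 10.15 in wild-type hepatocytes, and the third and dimmest gave 0.12 without passing. Eif4ebp2, a second repressor of the same kind, gave 0.032 (SE 0.07, limma adjusted p = 0.799), and Eif4enif1, which carries eIF4E into the nucleus, gave -0.054. The 5 probe sets of Eif4ebp2 ran from -0.12 to 0.26 and did not pass. Pabpc1, the cytoplasmic poly(A)-binding protein that links the tail of the mRNA to the cap, read 11.73, 11.72 and 11.70 in transgenic against 11.61, 11.79 and 11.66 in wild-type hepatocytes, a difference of 0.028. That holds for its brightest probe set only. The dimmer of its 2 probe sets gave -0.48 and did not pass when every probe set was tested.

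Among the 8 genes of elongation, 1 rose (12.5% called, beside 15.9% of all genes). Eef1a2, a form of the tRNA-delivering factor eEF1A that adult tissues express mainly in muscle and neurons, read 7.46, 7.53 and 7.57 in transgenic hepatocytes, against 7.15, 7.28 and 7.22 in wild-type hepatocytes. The groups did not overlap. The difference was 0.30 (SE 0.06, limma adjusted p = 0.0141), a 1.23-fold increase, and without transgenic replicate 3 it was 0.27 and missed the threshold (adjusted p = 0.0540). The gene has 1 probe set. Eef1a1, the form used by most cells, read 13.85, 13.87 and 13.84 in transgenic against 13.78, 13.82 and 13.81 in wild-type hepatocytes. Its difference of 0.047 (SE 0.05, limma adjusted p = 0.609) had a 95% interval from -0.070 to 0.16.

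Of the exchange factors that reload eEF1A, Eef1d gave 0.13 and Eef1b2 -0.0035, and neither passed. Eef1e1, which belongs to the complex of tRNA synthetases, gave 0.18 (SE 0.08, limma adjusted p = 0.173). Eef2, the translocation factor, read 12.16, 12.19 and 12.14 in transgenic against 12.05, 12.15 and 12.04 in wild-type hepatocytes, a difference of 0.086. Its inhibitory kinase Eef2k gave -0.032 under the array median, and Eif5a, which helps ribosomes through difficult peptide bonds, gave -0.021. The release factors Etf1 and Gspt1, which end synthesis at the stop codon, gave -0.040 and 0.045, with intervals within 1.3-fold at their brightest probe sets. The 5 probe sets of Etf1 ran from -0.22 to 0.10 and did not pass. Methyltransferases that modify elongation factors came in by their symbols. Eef2kmt gave 0.24 under the array median and Eef1aknmt 0.053, also under it, and neither passed.

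The kinases that signal to initiation did not pass, with 0 of 4 by limma, beside 15.9% of all genes. At an unadjusted p under 0.05 there was 1 (25%, beside 28.9% of all genes). Rps6kb2, an S6 kinase downstream of mTORC1, read 6.06, 6.16 and 5.88 in transgenic against 5.91, 5.65 and 5.69 in wild-type hepatocytes, and the groups overlapped. Its difference was 0.28 (SE 0.10, limma adjusted p = 0.0901), and it passed without wild-type replicate 1 (adjusted p = 0.0430). Mtor itself read 7.41, 7.45 and 7.42 in transgenic against 7.31, 7.38 and 7.34 in wild-type hepatocytes, a difference of 0.082 with a 95% interval from -0.037 to 0.20. Mknk1 and Mknk2, the kinases that phosphorylate eIF4E, gave 0.12 and -0.0082. The probe sets of Mknk1 ran from -0.017 to 0.19 and those of Mknk2 from -0.0082 to 0.19, without passing.

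Genes around this machinery were counted in 5 further lists, which were written with earlier results of these data known. Among eIF2 alpha kinases, phosphatase subunits and genes they control, 3 of 11 were higher and 2 lower (45.5% called, beside 15.9% of all genes), with a list median of 0.0033. In this list 10 of the 11 were brighter than the array median, where 23.6% of all genes were called. Trib3, a stress-induced pseudokinase, was higher by 0.49 (SE 0.06, limma adjusted p = 0.000881). Eif2ak2, the interferon-induced kinase PKR, was higher by 0.35 (limma adjusted p = 0.00476), whereas Eif2ak1, Eif2ak3 and Eif2ak4 lay between -0.0059 and 0.027. Nck1, an adaptor that favours eIF2 dephosphorylation, differed by -0.32 (limma adjusted p = 0.00635). Of 26 regulators of mTORC1, 4 were higher and 2 lower (23.1%, list median 0.038), and 21 of the 26 were brighter than the array median, where 23.6% of all genes were called. The kinase gene Akt1 was higher by 0.34, while Sesn3, a sestrin that restrains mTORC1, differed by -0.35 and Rraga, a GTPase that brings mTORC1 to the lysosome, by -0.26, all of them past the threshold.

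Of 17 other initiation, poly(A), release and recycling factors, 0 were higher and 5 lower (29.4%, list median -0.071), and 15 of the 17 were brighter than the array median, where the share of all genes was 23.6%. Paip1, which stimulates translation through the poly(A)-binding protein, differed by -0.37 (SE 0.06, limma adjusted p = 0.00622). Paip2, which inhibits the same protein, differed by -0.22 (limma adjusted p = 0.0313), and Pabpn1, its nuclear counterpart, by -0.28 (limma adjusted p = 0.0146). Of 20 genes for cytosolic aminoacyl-tRNA synthetases and their scaffold, which charge tRNAs with amino acids, 5 were higher and 0 lower (25%, list median 0.14), and all 20 were brighter than the array median, where the share was 23.6%. Of their differences 19 were above 0, as were 53.1% of those over all genes. Yars, Gars and Sars, for tyrosine, glycine and serine, were higher by 0.44, 0.36 and 0.31 (limma adjusted p = 0.0101, 0.00452 and 0.00704). Of 10 mitochondrial translation factors in the list 5 were measured. Of these 0 passed by limma, with 2 at an unadjusted p under 0.05 (40%, beside 28.9% of all genes). All 5 differences were below 0, from -0.20 to -0.041, as were those of 5818 of the 12393 genes tested.

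**Figure D5:**
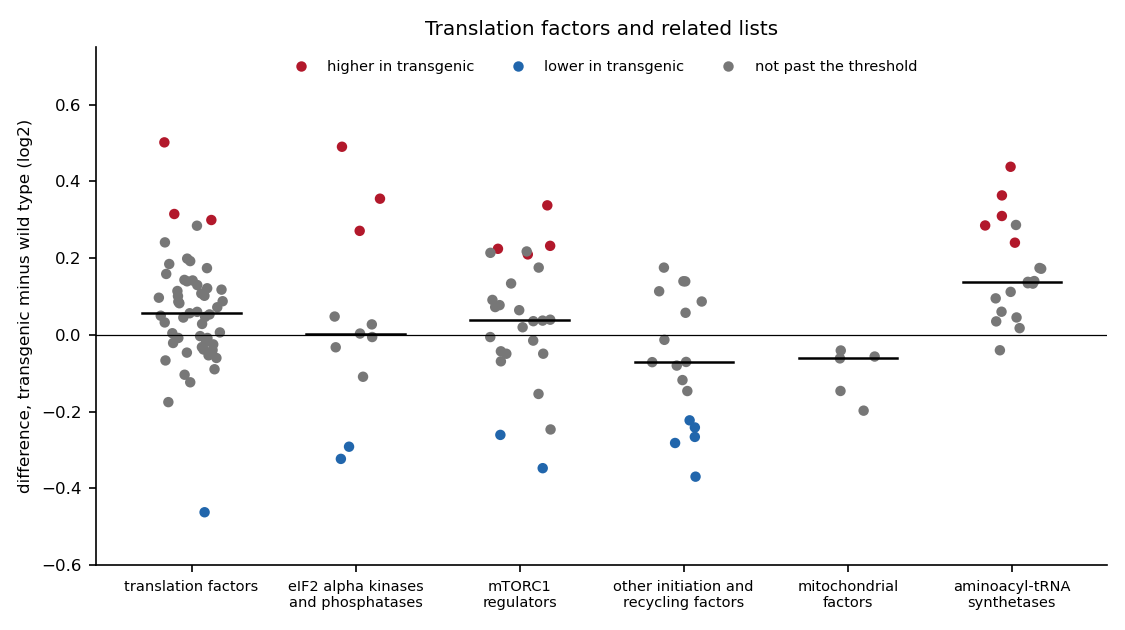
Differences between transgenic and wild-type hepatocytes (y axis, log2) of the 53 translation factors and of 5 related lists, 1 point per gene, with the list median as a bar. The bar lies at 0.056 for the translation factors and at 0.14 for the aminoacyl-tRNA synthetases.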

How the data were processed

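The authors deposited 1 log2 expression value per probe set and array. Per the submitters' processing notes these come from RMA, run in Affymetrix Expression Console. Its version, and whether all 6 arrays were processed as 1 set, are not stated there. Of 22690 probe sets, 20380 carried 1 gene symbol in the platform annotation. Each gene was represented by its brightest probe set, which gave 12393 genes. The genotypes were compared with limma 3.58.1 (lmFit and eBayes, R 4.3.3, tables read with the R package data.table, version 1.17.8), two-sided, with p-values adjusted by Benjamini-Hochberg over all genes. The threshold was 0.05. The procedure was checked on simulated data. Arrays have no read depth, and their number limits the precision.

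The members, the lists and the alternatives were chosen with earlier results of these data known. Genes to be described in detail were the called members, the brightest member of each role, the member with the smallest p of each role without a call, and up to 3 called genes with the smallest p of each related list. Other members were named after their values were seen. The 1.3-fold bound for intervals was also set after the values were seen. No batch or date label was used here.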

Additional observations from a re-analysis of the deposited data

How the results depend on the processing

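Alternatives covered the probe set that represents a gene, dim genes, scaling, the variance prior, array weights, the threshold, leaving out each array and a block for the replicate number. Eif5 kept its call under all 17, and Eif1a under all that measured it. The count of translation factors past the threshold was 10 (8 higher, 2 lower) without dim genes and 12 (10 higher, 2 lower) with the variance trend. Repeated quantile normalization gave 5 higher, beside 875 of all 12393 genes. Array weights gave 2 lower, beside 1207 of all genes. At an adjusted p of 0.01 the count was 2, of which 1 was higher, and over all genes it was 918, with 392 higher and 526 lower. Leaving out 1 array gave 2 to 4 translation factors, with 1 to 3 higher, and over all genes 1267 to 1700, with 540 to 739 higher and 727 to 961 lower. The lowest counts over all genes came without transgenic replicate 1, and the lowest of translation factors without transgenic replicate 3. Deviations of same-numbered arrays correlated at -0.010, -0.0097 and 0.10, and not every array correlated best with its own number. With the replicate block 3 translation factors passed (5.66%, beside 12.1% of all genes), without Eif4ebp1 (limma adjusted p = 0.0566). Of 883 single-gene values under alternatives, 9 lost a call, 21 gained one and 0 called values changed sign. Members that had not passed changed sign in 38 cases, over 19 genes.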
